A study of Rattus norvegicus with 15 samples.

Results

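Genes of mitochondrial fatty acid oxidation and ketone body metabolism were examined in the livers of rats that ate a soy isoflavone. The set held 33 genes, chosen by their place in the pathway, out of 14218 genes with a probe set annotated to that gene alone. Each gene was represented by the probe set whose level, averaged over the 15 arrays, was highest, and all 33 had one that passed the filter on low levels (the lower 40% of mean levels were left out). The animals were male Sprague-Dawley rats, housed singly, 4 weeks old at the start, that spent 5 days adapting to the housing and then 14 days on their diet. The genistein group ate 2 g/kg of genistein, the daidzein group 2 g/kg of daidzein, and the control group the same basal diet without isoflavone, each with 5 liver arrays, titled as biological replicates. Palm oil (100 g/kg) was the fat and casein (200 g/kg) the protein of all 3 diets, so the controls too ate a purified diet with palm oil. Genistein and daidzein share the isoflavone skeleton, and genistein carries an additional hydroxyl group. The series set out to compare both isoflavones for what they do to lipid metabolism in the liver.

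Long-chain fatty acids enter mitochondria as carnitine esters, a step controlled by carnitine palmitoyltransferase 1 at the outer membrane and blocked by malonyl-CoA, the first product of fatty acid synthesis. Inside, acyl-CoA dehydrogenases, hydratases, hydroxyacyl-CoA dehydrogenases and thiolases shorten the chain in repeated rounds, and the electron transfer flavoproteins pass electrons from the dehydrogenases to the respiratory chain. Liver turns much of the resulting acetyl-CoA into ketone bodies for export, and many genes of the route are targets of the nuclear receptor PPAR alpha in rodents.

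Levels are log2 units rebuilt from the deposited scores, quantile normalized, with an arbitrary zero, so values are comparable between arrays for 1 gene but not between genes. Changes are differences of group means (between the isoflavones, genistein minus daidzein) from a linear model over all 15 arrays (limma), with their standard error (SE), and adjusted p-values were controlled over all 18625 probe sets tested. The arrays correlated with each other at 0.931 to 0.969 across these probe sets. All 7 measured hepatocyte markers were above the filter level of -0.30, with array medians of 8.38 to 8.51 with genistein, 8.44 to 8.57 with daidzein and 8.46 to 8.53 in controls. None was called by limma's adjusted p, but Tat, tyrosine aminotransferase, had the largest change of the 7, of -1.02 with genistein (unadjusted p = 0.00635) and -0.52 with daidzein (unadjusted p = 0.128). Alb, at a mean level of 9.29, had equal means in all 3 diets. Quantile normalization does this to a probe set with the same rank in every array. The lack of a call for Alb was thus fixed in advance, and the closeness of these medians may be so in part. Of 7 skeletal and heart muscle markers, 6 were below the filter level, with array medians of -1.06 to -0.74 with genistein, -1.001 to -0.55 with daidzein and -1.23 to -0.68 in controls. All 7 measured markers of stellate cells and fibroblasts were above the filter level, with array medians of 1.60 to 1.94 with genistein, 1.51 to 1.67 with daidzein and 1.49 to 1.79 in controls. None of them was called, but at an unadjusted p under 0.05 Col3a1 (-0.30), Reln (-0.34) and Dcn (-0.76) were lower with daidzein than in controls, and Col1a2 (0.24), Col3a1 (0.32) and Reln (0.27) were higher with genistein than with daidzein. Among the 7 Kupffer cell and leukocyte markers, likewise with no call, Cd5l was lower with daidzein (-0.51, unadjusted p = 0.0321). Not all markers of these lists followed: with daidzein, Cd68 had 0.031 and the stellate cell marker Des 0.15. Between genistein and daidzein, endothelial Lyve1 differed by 0.33 (limma unadjusted p = 0.0302). Alas2 of red blood cells differed by -0.56 (unadjusted p = 0.0365), and neither was called. The part of these cell types in the values below was not tested. One array stood apart: daidzein 5 carried all 4 exocrine pancreas genes above the other 14 arrays (Prss1 at 7.59 against at most 0.47, Cpa1 at 5.91 against at most 0.52, Amy2a3 at 7.15 against at most 0.48 and Cela1 at 5.86 against at most 3.33), so the genes that pass or miss an unadjusted p under 0.05 only when it is left out are named below. Of 9 exact permutation comparisons of 3'/5' signal ratios, a measure of RNA quality, the lowest p was 0.0238 (GAPDH, daidzein minus control -0.0708, Benjamini-Hochberg adjusted p = 0.214), and its part in the daidzein values was not tested. In bulk liver RNA, fewer cells of a type and less RNA per cell cannot be told apart, and 5 arrays per diet limit the precision of every value.

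No gene of the set passed the threshold of an adjusted p of 0.05 in any of the 3 comparisons. Most of the changes were small, and most were bounded: in each comparison the 95% confidence interval lay within 1.5-fold either way for 29 of the 33 genes. The genes with the lowest unadjusted p against control were Pcca, Acadm, Cpt1b, Hsd17b10 and Cpt1a for genistein, and Eci1, Acadm, Etfb, Acad9 and Ivd for daidzein.

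**Figure D1:**
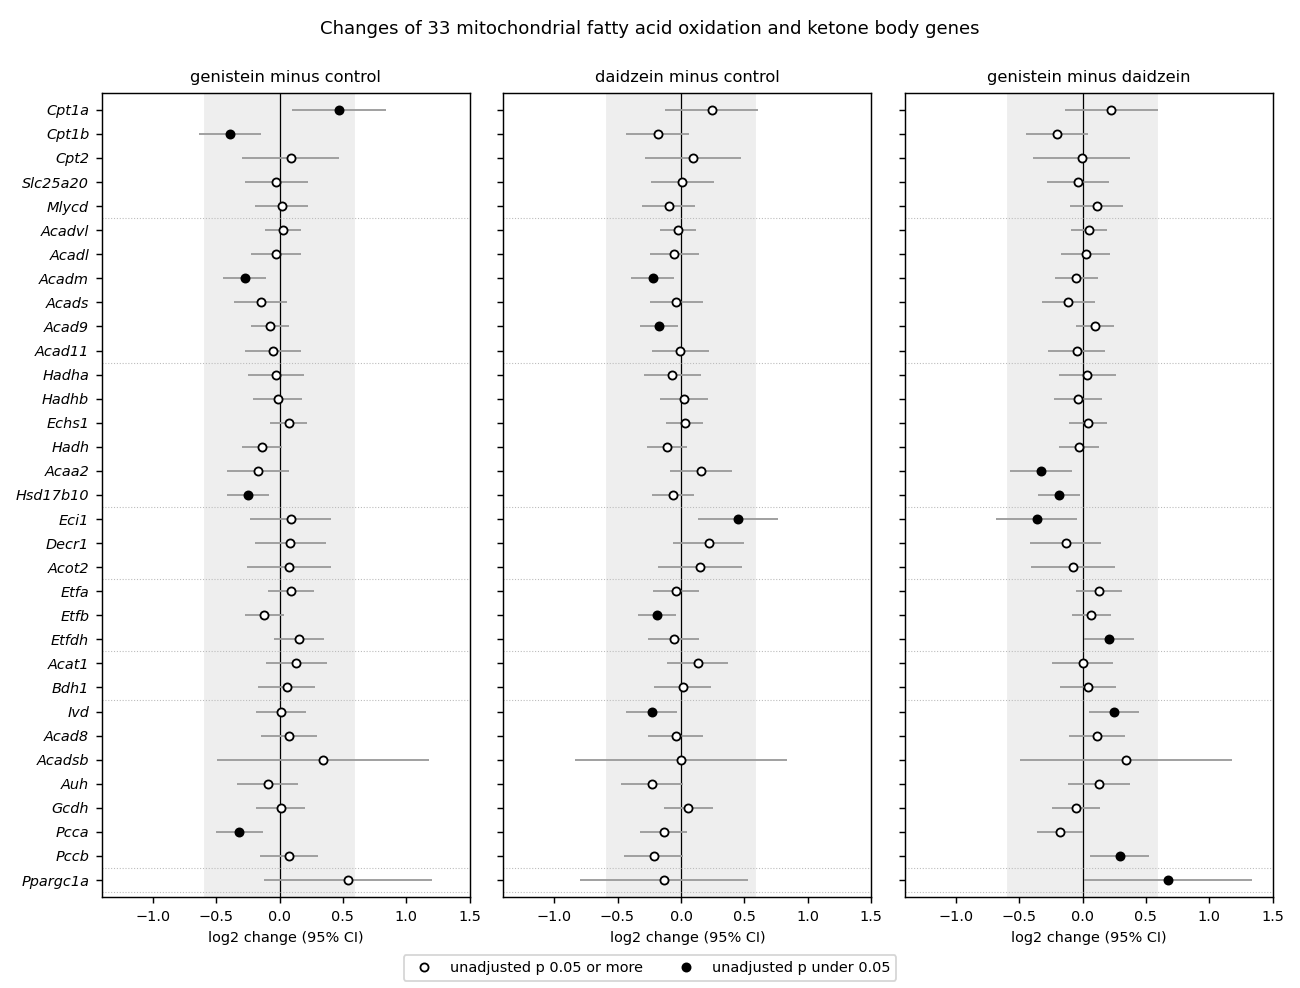
Log2 change of the 33 genes (points) with 95% confidence intervals (lines) for genistein minus control, daidzein minus control and genistein minus daidzein, ordered by role with dotted lines between roles. The grey band is 1.5-fold either way, filled points have an unadjusted p under 0.05, and the genes' intervals leave the band for 4 genes in each panel.

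With genistein against control, the changes lay on both sides of 0: 18 genes had a change above 0 and 15 below, and the median was 0.014, against -1.5e-05 over all probe sets tested. The most positive changes were those of Ppargc1a (0.54 ± 0.31) and Cpt1a (0.47 ± 0.17), and the most negative those of Cpt1b (-0.39 ± 0.11) and Pcca (-0.32 ± 0.086). limma called 0 of 33 genes after Benjamini-Hochberg adjustment, with 0.322% of all tested probe sets called, and the lowest adjusted p in the set was 0.151. At an unadjusted p under 0.05 there were 5 genes, 1 higher with genistein (all tested, 5.45%) and 4 lower (all tested, 5.5%). In 3 genes, Acadm, Hsd17b10 and Pcca, every genistein array lay below every control array, a separation without overlap that 2.57% of all tested probe sets showed in either direction. Among all tested probe sets, 72.2% had an interval within 1.5-fold either way; the 4 exceptions in the set were Cpt1a, Cpt1b, Acadsb and Ppargc1a.

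With daidzein against control, 12 genes had a change above 0 and 21 below, with a median of -0.039 against 0.00035 over all probe sets tested; with arrays only centred on their medians the split was 17 above and 16 below, with a median of 0.0021. The most positive changes were those of Eci1 (0.45 ± 0.15) and Cpt1a (0.24 ± 0.17), and the most negative those of Ivd (-0.23 ± 0.093) and Auh (-0.23 ± 0.11). limma called 0 of 33 genes after adjustment, with 0.0161% of all tested probe sets called, and the lowest adjusted p in the set was 0.433. At an unadjusted p under 0.05 there were 5 genes, 1 higher with daidzein (all tested, 4.1%) and 4 lower (all tested, 4.14%). Only Acad9 had no overlap between the daidzein and control arrays, a pattern seen in 1.88% of all tested probe sets. The interval was within 1.5-fold for 73.8% of all tested probe sets, and the exceptions in the set were Cpt1a, Eci1, Acadsb and Ppargc1a. Without daidzein 5, the unadjusted p was under 0.05 for Acadm, Acad9, Eci1 and Ivd and no longer for Etfb. Both isoflavone comparisons use the same 5 control arrays, so their values are not independent of each other.

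The direct comparison of genistein with daidzein, at the same dose and time, is the only pair of compounds here. No gene of the set differed between them by limma's adjusted p, with 0.113% of all tested probe sets called and a lowest adjusted p in the set of 0.352. At an unadjusted p under 0.05 there were 7 genes, of which Pccb, Ivd, Etfdh and Ppargc1a were higher with genistein (all tested, 4.64%) and Acaa2, Eci1 and Hsd17b10 lower (all tested, 4.73%). Without daidzein 5, the array with the pancreas genes, 6 genes passed: Hsd17b10 and Ppargc1a no longer did, and Cpt1b did, with a difference of -0.28 against -0.20 over all arrays. The probe sets called among all tested then numbered 4, against 21 with every array. The median difference was 0.025, against 0.00078 over all probe sets tested, and 18 genes were above 0 and 15 below. That split was 12 above and 21 below on the scores as deposited (median -0.031) and 15 above and 18 below with arrays only centred on their medians (median -0.012). No gene separated the genistein from the daidzein arrays without overlap (all tested, 2.03%). The difference was bounded within 1.5-fold for 29 genes (all tested, 73.4%); for Cpt1a, Eci1, Acadsb and Ppargc1a a difference of that size was not excluded by the interval. An adjusted p above the threshold does not show that the 2 isoflavones act alike, and the intervals given below for single genes are the measure of how far they could differ.

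The carnitine route into mitochondria held 5 genes. Cpt1a, the liver form of carnitine palmitoyltransferase 1 (Entrez gene 25757), stood at 5.88, 5.99, 6.05, 5.42 and 5.68 with genistein, at 5.18, 5.36, 5.83, 5.74 and 5.77 with daidzein and at 5.30, 5.42, 5.00, 5.13 and 5.81 in controls. All 5 genistein arrays were above the control mean, but control 5 was higher than genistein 4 and genistein 5, and 3 of the 5 daidzein arrays lay in the genistein range. The change was 0.47 ± 0.17 with genistein (1.38-fold, interval 0.10 to 0.84, unadjusted p = 0.0158, limma adjusted p = 0.318) and 0.24 ± 0.17 with daidzein (adjusted p = 0.740). Between the isoflavones the difference was 0.23 ± 0.17, with an interval of -0.14 to 0.60. A second probe set of Cpt1a gave 0.62 with genistein and 0.25 with daidzein.

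Cpt1b, the muscle form of the same enzyme (Entrez gene 25756), stood at -0.21, -0.25, -0.52, -0.50 and -0.45 with genistein, at 0.16, -0.17, -0.17, -0.23 and -0.50 with daidzein and at 0.0011, 0.071, 0.19, -0.029 and -0.21 in controls. These levels are near the filter level, 3 genistein arrays and 1 daidzein array were below it, and control 5 overlapped with genistein. The change with genistein was -0.39 ± 0.11 (unadjusted p = 0.00430, limma adjusted p = 0.189), and -0.26 when 16 units were added to the rebuilt intensities before the logarithm, which damps differences of dim probe sets. Of the 7 measured muscle markers, Ckm and Acta1 were among the 6 below the filter level, and Tnnt3 was above it, at a mean level of 1.23. Tnnt3, not called by limma, had changes of -0.051 with genistein, -0.41 with daidzein and 0.36 between genistein and daidzein. The part of muscle RNA in the Cpt1b values was not tested. For Cpt1b the change with daidzein was -0.18 ± 0.11, and -0.10 without daidzein 5.

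Cpt2, the inner-membrane transferase that turns acylcarnitine back into acyl-CoA (Entrez gene 25413), stood at 4.35, 3.83, 4.24, 3.77 and 3.40 with genistein, at 4.15, 3.60, 4.05, 3.86 and 3.96 with daidzein and at 3.86, 3.76, 3.92, 3.42 and 4.18 in controls. Slc25a20, the translocase that exchanges acylcarnitine for carnitine (Entrez gene 117035), stood at 4.09, 4.52, 4.46, 4.19 and 4.27 with genistein, at 4.10, 4.51, 4.40, 4.48 and 4.23 with daidzein and at 4.31, 4.65, 4.15, 4.27 and 4.28 in controls. In both genes the 3 groups overlapped widely. For Cpt2 the change was 0.088 ± 0.18 with genistein and 0.094 ± 0.18 with daidzein, and for Slc25a20 it was -0.025 ± 0.12 with genistein and 0.01 ± 0.12 with daidzein. The Slc25a20 intervals, -0.27 to 0.22 with genistein and -0.24 to 0.26 with daidzein, bound it to less than 1.5-fold. Mlycd, which degrades malonyl-CoA, had changes of 0.016 ± 0.098 with genistein and -0.097 ± 0.098 with daidzein.

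**Figure D2:**
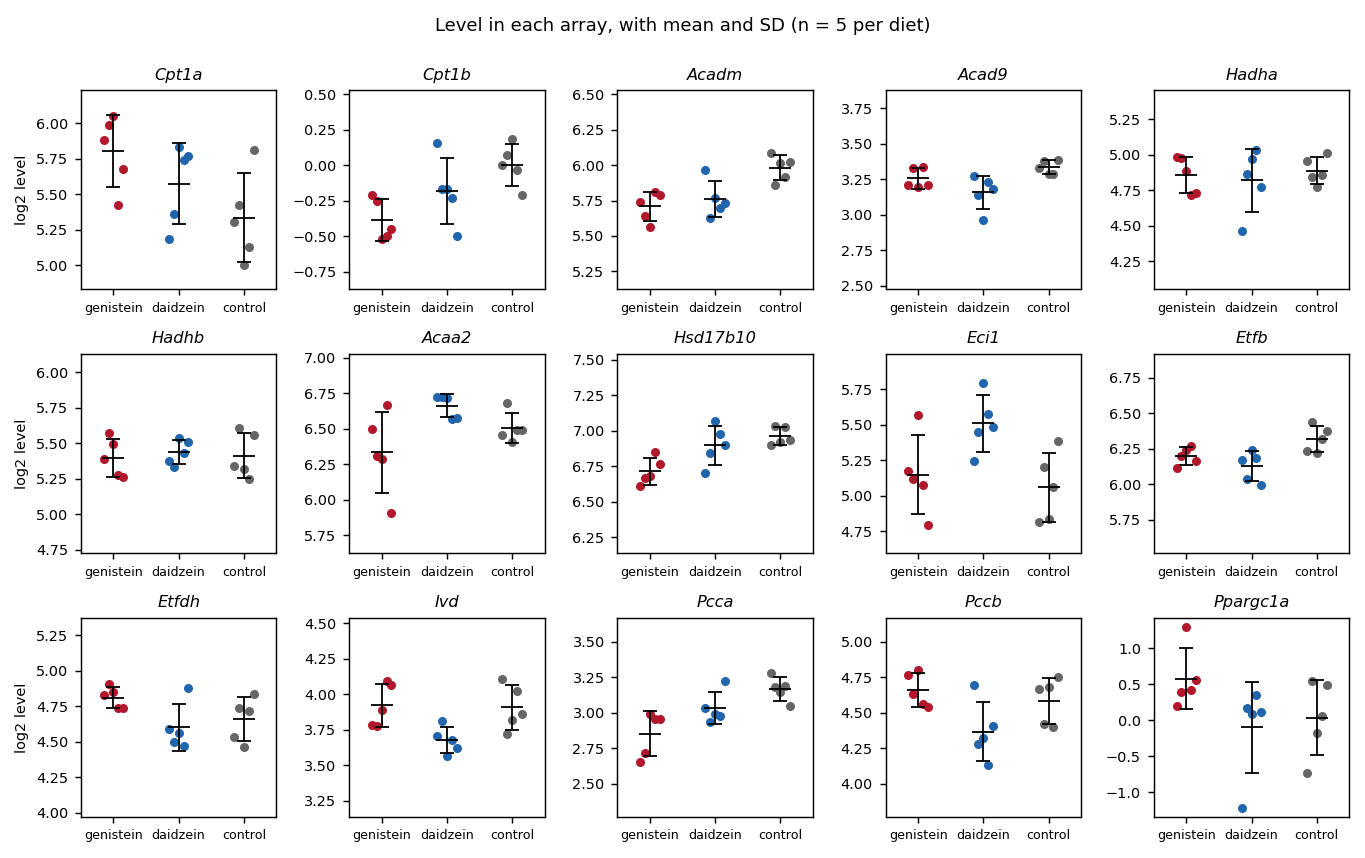
Log2 level of 15 genes in each array (points) by diet, genistein, daidzein and control, with the mean and SD of 5 arrays (black). The vertical axes have different zeros and spans from gene to gene; in Acadm, Hsd17b10 and Pcca the genistein points lie below all control points, and in Ppargc1a the array daidzein 1 lies at -1.22, below all others.

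Among the acyl-CoA dehydrogenases of straight-chain fatty acids, 5 of 6 had a change below 0 with genistein and 6 of 6 with daidzein, with medians of -0.064 and -0.045, and 0 of 6 passed the adjusted test in either comparison. With arrays only centred on their medians, 4 of 6 were below 0 with genistein and 3 of 6 with daidzein, and on the scores as deposited 5 of 6 with genistein and 4 of 6 with daidzein. Acadm, the medium-chain dehydrogenase (Entrez gene 24158), stood at 5.74, 5.64, 5.57, 5.81 and 5.79 with genistein, at 5.97, 5.63, 5.77, 5.70 and 5.73 with daidzein and at 6.08, 5.86, 6.01, 5.92 and 6.02 in controls. All genistein arrays and all daidzein arrays except daidzein 1 were below the lowest control array. Its change was -0.27 ± 0.079 with genistein (unadjusted p = 0.00384, limma adjusted p = 0.180) and -0.22 ± 0.079 with daidzein (unadjusted p = 0.0141, adjusted p = 0.481), against the same controls. The isoflavone groups themselves differed by -0.051 ± 0.079, with an interval of -0.22 to 0.12, so a difference of 1.5-fold between them lay outside the interval.

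Acad9, a dehydrogenase that is also an assembly factor of respiratory complex I (Entrez gene 294973), stood at 3.21, 3.33, 3.20, 3.34 and 3.21 with genistein, at 3.27, 3.14, 2.96, 3.23 and 3.18 with daidzein and at 3.33, 3.38, 3.29, 3.29 and 3.39 in controls. The highest daidzein array, at 3.27, was just under the lowest control array, at 3.29. The change was -0.18 ± 0.07 with daidzein (unadjusted p = 0.0236, limma adjusted p = 0.538) and -0.078 ± 0.07 with genistein. Acadvl, the very-long-chain dehydrogenase, had the lowest spread between arrays of the set (residual SD 0.0767) and changes of 0.026 ± 0.067 with genistein and -0.025 ± 0.067 with daidzein. Acadl, the long-chain dehydrogenase, had -0.027 ± 0.091 with genistein and -0.052 ± 0.091 with daidzein, and Acads, the short-chain one, -0.15 ± 0.097 with genistein and -0.037 ± 0.097 with daidzein. Acad11, a further family member for long chains, had -0.051 ± 0.10 with genistein and -0.0046 ± 0.10 with daidzein.

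The later steps of beta-oxidation held 6 genes. Hadha and Hadhb encode the alpha and beta subunits of the mitochondrial trifunctional protein, which carries out the hydratase, dehydrogenase and thiolase steps on long chains. They are neighbours in the rat genome and are read in opposite directions from a shared interval, which is shown here because both genes lead outward from it and both were measured. The interval between the 2 genes as RefSeq annotates them is 243 bases long, at chr6:31907558-31907800 of build GRCr8, and is printed on the plus strand, on which Hadha is read.
Hadhb-Hadha interval: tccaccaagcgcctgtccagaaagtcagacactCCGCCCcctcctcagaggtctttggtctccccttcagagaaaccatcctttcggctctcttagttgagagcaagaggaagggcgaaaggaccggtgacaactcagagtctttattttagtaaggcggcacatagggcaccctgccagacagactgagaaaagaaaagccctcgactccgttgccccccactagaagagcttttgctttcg
The capitals mark the only copy of the GC box GGGCGG, a motif bound by Sp1-family factors, which reads CCGCCC on the strand shown. A match of these letters is a description of the sequence and not evidence of binding.

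Hadha (Entrez gene 170670) stood at 4.98, 4.97, 4.89, 4.72 and 4.73 with genistein, at 4.46, 4.87, 4.97, 5.03 and 4.77 with daidzein and at 4.96, 4.84, 4.78, 4.86 and 5.01 in controls. Hadhb (Entrez gene 171155) stood at 5.39, 5.57, 5.49, 5.28 and 5.26 with genistein, at 5.38, 5.33, 5.54, 5.43 and 5.51 with daidzein and at 5.34, 5.61, 5.32, 5.25 and 5.56 in controls. Genistein and control arrays overlapped in both genes, and daidzein 1 was the lowest array of Hadha. The changes were -0.029 ± 0.10 for Hadha and -0.015 ± 0.089 for Hadhb with genistein, and -0.067 ± 0.10 for Hadha and 0.023 ± 0.089 for Hadhb with daidzein. Their intervals with genistein, -0.25 to 0.19 for Hadha and -0.21 to 0.18 for Hadhb, and with daidzein, -0.29 to 0.15 for Hadha and -0.17 to 0.21 for Hadhb, all lay well inside 1.5-fold.

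Hsd17b10, a dehydrogenase of branched-chain and steroid substrates that is also a subunit of mitochondrial ribonuclease P (Entrez gene 63864), stood at 6.61, 6.67, 6.68, 6.85 and 6.76 with genistein, at 6.70, 6.84, 7.07, 6.97 and 6.90 with daidzein and at 6.90, 7.03, 6.92, 7.02 and 6.93 in controls. The 5 genistein arrays were below the lowest control array, while the daidzein arrays spread over both ranges. The change with genistein was -0.25 ± 0.078 (unadjusted p = 0.00616, limma adjusted p = 0.221), that with daidzein -0.065 ± 0.078, and the difference between genistein and daidzein -0.18 ± 0.078 (interval -0.35 to -0.018, adjusted p = 0.477).

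Acaa2, the mitochondrial thiolase of medium chains (Entrez gene 170465), stood at 6.50, 6.31, 6.29, 6.67 and 5.91 with genistein, at 6.72, 6.72, 6.72, 6.57 and 6.57 with daidzein and at 6.46, 6.68, 6.40, 6.49 and 6.49 in controls. The daidzein arrays lay in a narrow range, 3 of them above every genistein and control array, and genistein 5 was the lowest of all 15 arrays. The difference between genistein and daidzein was -0.33 ± 0.12 (1.25-fold lower with genistein, interval -0.57 to -0.08, unadjusted p = 0.0129, limma adjusted p = 0.352). A second, dimmer probe set of Acaa2 gave 0.23 for the same difference, and the mean of both gave -0.048, so the 2 probe sets disagree in direction. Hadh, the hydroxyacyl-CoA dehydrogenase of shorter chains, had changes of -0.14 ± 0.074 with genistein and -0.11 ± 0.074 with daidzein. Echs1, the short-chain enoyl-CoA hydratase, had 0.071 ± 0.069 with genistein and 0.028 ± 0.069 with daidzein.

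Among the auxiliary enzymes, which act on unsaturated fatty acids or release free acids from CoA, all 3 had a change above 0 in both comparisons with control, and none passed the adjusted test. Eci1, the isomerase that shifts double bonds in unsaturated fatty acids (Entrez gene 29740), stood at 5.18, 5.12, 5.57, 5.08 and 4.80 with genistein, at 5.24, 5.45, 5.80, 5.58 and 5.48 with daidzein and at 4.82, 5.20, 4.84, 5.06 and 5.39 in controls. Every daidzein array was above the control mean, but control 5 and genistein 3 lay within the daidzein range. The change with daidzein was 0.45 ± 0.15 (1.37-fold, interval 0.13 to 0.77, unadjusted p = 0.00862, limma adjusted p = 0.433), that with genistein 0.088 ± 0.15, and the difference between genistein and daidzein -0.36 ± 0.15 (adjusted p = 0.456). This probe set carries the suffix by which the array maker marks probes shared among related transcripts, and a second probe set of Eci1 without it gave 0.40 with daidzein and 0.30 with genistein.

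Decr1, the dienoyl-CoA reductase needed for polyunsaturated chains, averaged 5.76 ± 0.13 with genistein, 5.89 ± 0.30 with daidzein and 5.67 ± 0.16 in controls (SD, n = 5). Its change was 0.22 ± 0.13 with daidzein, and 0.35 without daidzein 1, which was the lowest daidzein array. Acot2, a mitochondrial acyl-CoA thioesterase, had changes of 0.074 ± 0.15 with genistein and 0.15 ± 0.15 with daidzein on its brightest probe set. Its 2 other probe sets gave 0.45 and 0.18 with genistein and 0.53 and 0.24 with daidzein, the first with an unadjusted limma p of 0.0283 with genistein and 0.0112 with daidzein (adjusted p = 0.384 and 0.460). Acot genes are close paralogs, and how far each probe set is shared among them was not tested.

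Electron transfer from the dehydrogenases held 3 genes, and none passed the adjusted test. Etfb, the beta subunit of the electron transfer flavoprotein (Entrez gene 292845), stood at 6.11, 6.20, 6.24, 6.27 and 6.16 with genistein, at 6.17, 6.04, 6.24, 6.18 and 5.99 with daidzein and at 6.23, 6.44, 6.22, 6.32 and 6.37 in controls. All daidzein and all genistein arrays were below the control mean, and the 3 groups overlapped. The change was -0.19 ± 0.071 with daidzein (unadjusted p = 0.0180, limma adjusted p = 0.509) and -0.12 ± 0.071 with genistein. Etfa, the alpha subunit, had 0.09 ± 0.084 with genistein and -0.039 ± 0.084 with daidzein. Etfdh, the oxidoreductase that hands the electrons to ubiquinone, averaged 4.81 ± 0.074 with genistein, 4.60 ± 0.16 with daidzein and 4.66 ± 0.15 in controls (SD, n = 5). The difference of genistein from daidzein in Etfdh was 0.21 ± 0.093 (adjusted p = 0.507), and daidzein 5, at 4.88, was the daidzein array that overlapped with genistein; without it the difference was 0.28.

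Of the ketone body enzymes, 2 are in the set. Acat1, the mitochondrial acetoacetyl-CoA thiolase (Entrez gene 25014), stood at 5.84, 5.51, 5.58, 5.69 and 5.68 with genistein, at 5.71, 5.42, 5.94, 5.78 and 5.43 with daidzein and at 5.52, 5.66, 5.36, 5.71 and 5.38 in controls. Bdh1, which interconverts acetoacetate and beta-hydroxybutyrate (Entrez gene 117099), stood at 5.65, 5.54, 5.77, 5.29 and 5.38 with genistein, at 5.47, 5.28, 5.59, 5.56 and 5.50 with daidzein and at 5.27, 5.61, 5.34, 5.55 and 5.58 in controls. The 3 diets overlapped fully in both. For Acat1 the change was 0.13 ± 0.11 with genistein and 0.13 ± 0.11 with daidzein, and for Bdh1 0.055 ± 0.10 with genistein and 0.012 ± 0.10 with daidzein. The difference between the isoflavones was 0.0024 ± 0.11 for Acat1 (interval -0.24 to 0.24) and 0.043 ± 0.10 for Bdh1 (interval -0.18 to 0.27).

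The enzymes of branched-chain amino acid, lysine and propionate breakdown share the mitochondrial matrix, and the acyl-CoA dehydrogenases among them pass electrons to the same electron transfer flavoprotein. With genistein 5 of the 7 had a change above 0 and 2 below, and with daidzein 1 was above and 6 below. Pcca, the alpha subunit of propionyl-CoA carboxylase (Entrez gene 687008), stood at 2.65, 2.72, 2.99, 2.96 and 2.95 with genistein, at 3.04, 2.94, 2.99, 2.98 and 3.22 with daidzein and at 3.28, 3.18, 3.15, 3.19 and 3.05 in controls. All genistein arrays were below the lowest control array, genistein 1 and genistein 2 by most. The change was -0.32 ± 0.086 with genistein (1.24-fold lower, unadjusted p = 0.00229, limma adjusted p = 0.151), which is the lowest p of the set, and -0.14 ± 0.086 with daidzein.

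Pccb, the beta subunit of the same carboxylase (Entrez gene 24624), stood at 4.76, 4.63, 4.80, 4.56 and 4.54 with genistein, at 4.69, 4.28, 4.32, 4.13 and 4.41 with daidzein and at 4.67, 4.42, 4.68, 4.40 and 4.75 in controls. Genistein arrays were above 4 of the 5 daidzein arrays, and daidzein 1 lay in the genistein range. The change was 0.076 ± 0.11 with genistein and -0.22 ± 0.11 with daidzein, and the difference between genistein and daidzein was 0.29 ± 0.11 (unadjusted p = 0.0166, limma adjusted p = 0.384). The 2 subunits of propionyl-CoA carboxylase thus had changes of opposite sign with genistein, and a test of the difference between them was not made.

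Ivd, isovaleryl-CoA dehydrogenase of leucine breakdown (Entrez gene 24513), stood at 3.79, 3.78, 3.89, 4.09 and 4.06 with genistein, at 3.70, 3.81, 3.57, 3.68 and 3.62 with daidzein and at 4.11, 3.72, 3.82, 4.03 and 3.86 in controls. Every daidzein array was below the genistein and the control mean, with overlap at daidzein 2. The change was -0.23 ± 0.093 with daidzein (unadjusted p = 0.0248, limma adjusted p = 0.545) and 0.014 ± 0.093 with genistein, and genistein differed from daidzein by 0.25 ± 0.093 (adjusted p = 0.399). Auh, the hydratase of the same pathway, had -0.094 ± 0.11 with genistein and -0.23 ± 0.11 with daidzein. Gcdh, the glutaryl-CoA dehydrogenase of lysine and tryptophan breakdown, had 0.009 ± 0.089 with genistein and 0.058 ± 0.089 with daidzein. Acad8, the isobutyryl-CoA dehydrogenase of valine breakdown, had 0.074 ± 0.10 with genistein and -0.041 ± 0.10 with daidzein. Acadsb, the short branched-chain dehydrogenase of isoleucine breakdown, had the largest spread of the set (residual SD 0.674), with arrays from 0.35 to 1.41 with genistein, -0.67 to 1.97 with daidzein and -0.25 to 0.84 in controls, so changes of 0.34 ± 0.39 with genistein and -0.0014 ± 0.39 with daidzein were not distinguishable from 0. The genistein change was 0.17 without genistein 5, and the daidzein change was -0.40 without daidzein 1 and 0.26 without daidzein 2.

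Ppargc1a encodes the coactivator PGC-1 alpha, which acts with PPAR alpha and other receptors on oxidation genes (Entrez gene 83516). It stood at 0.20, 0.40, 1.30, 0.43 and 0.56 with genistein, at -1.22, 0.16, 0.093, 0.35 and 0.11 with daidzein and at -0.73, 0.54, -0.17, 0.056 and 0.49 in controls. Genistein 3 was the highest array, daidzein 1 and control 1 were the lowest, and the groups overlapped. The change was 0.54 ± 0.31 with genistein (limma adjusted p = 0.577), and 0.35 without control 1. The difference between genistein and daidzein was 0.67 ± 0.31 (1.59-fold, interval 0.011 to 1.34, unadjusted p = 0.0467, adjusted p = 0.523), the only one of the set over 1.5-fold in size, and it was 0.39 without daidzein 1. Against control, daidzein gave -0.13 ± 0.31, and 0.14 without daidzein 1. The other 2 probe sets of the gene were below the filter level.

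Array by array, the set as a whole stayed close to the control mean. The median over the 33 genes, relative to each gene's control mean, was -0.004, -0.0035, 0.064, 0.017 and -0.13 in the genistein arrays, -0.041, -0.096, 0.022, -0.038 and -0.025 in the daidzein arrays and 0.0052, 0.047, -0.087, -0.053 and 0.081 in the control arrays. Genistein 5 was the lowest, with 9 of 33 genes above the control mean, and control 3 also had 9, while control 5 had 23. The range of the control arrays covered all arrays except genistein 5 and daidzein 2. Each control array enters the mean it is set against, which narrows that range, so these exceptions cannot be read as a shift. Within diets the genes of the set varied by a median residual SD of 0.155, against 0.220 over all tested probe sets, and the median SE of a change was 0.102, against 0.136. The median size of a change was 0.0875 with genistein, 0.0973 with daidzein and 0.113 between them, against 0.115, 0.111 and 0.110 over all tested probe sets.

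**Figure D3:**
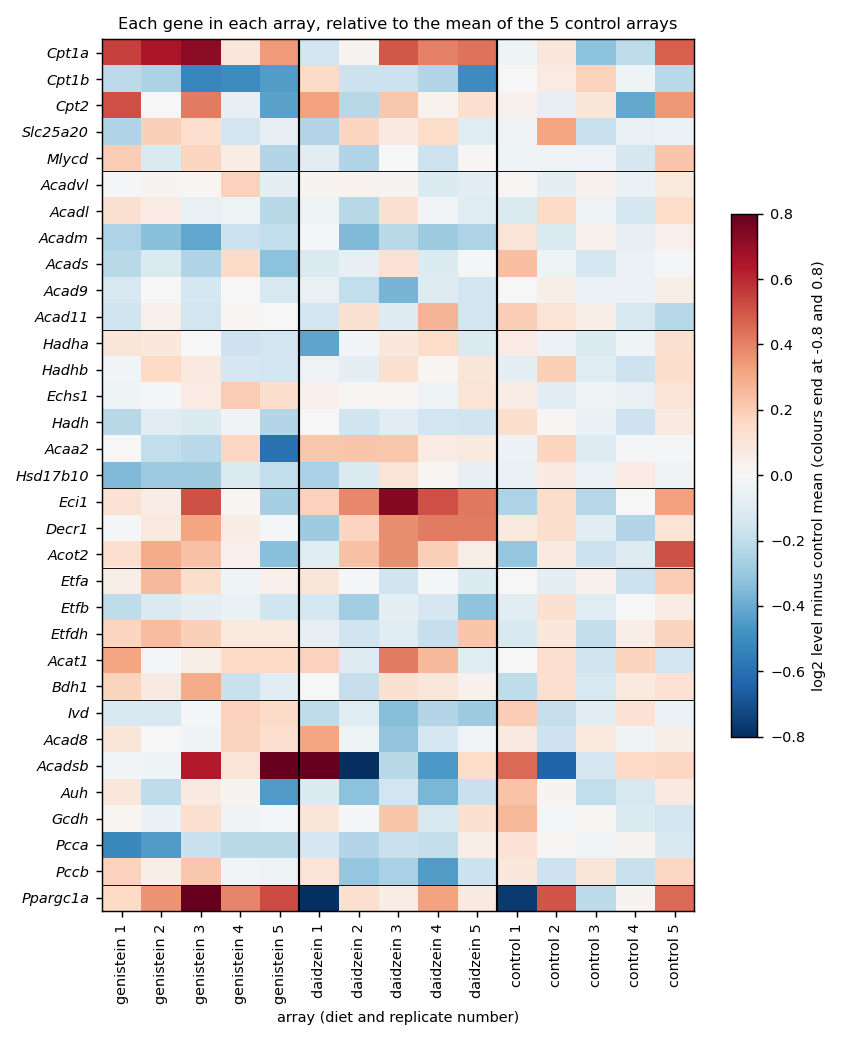
Log2 level of each of the 33 genes (rows, ordered by role) in each of the 15 arrays (columns, by diet and replicate), minus the mean of the 5 control arrays; red is above, blue below, and colours end at -0.8 and 0.8. Cpt1a is red in all 5 genistein arrays and Acadm and Pcca are blue in all 5, while most rows show no block of one colour by diet.

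For 3 pairs of subunits of 1 enzyme, no correlation over all 15 arrays passed its permutation test. Over these arrays, Hadha and Hadhb correlated at Pearson r = 0.391 (permutation p = 0.144) and Spearman rho = 0.468 (permutation p = 0.0803), with r = 0.507 without the 2 arrays farthest from the median of Hadha and r = 0.419 after the diet means were removed. Etfa and Etfb had r = 0.0521 (permutation p = 0.854) and rho = -0.143 (permutation p = 0.612), and without the 2 farthest arrays r = -0.169. Pcca and Pccb had r = -0.171 (permutation p = 0.550) and rho = -0.0571 (permutation p = 0.846), and without the 2 farthest arrays r = -0.0951. These were 3 pairs, tested two-sided with 100000 resamples, and the Benjamini-Hochberg adjusted permutation p was 0.433, 0.854 and 0.825 for r and 0.241, 0.846 and 0.846 for rho.

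**Figure D4:**
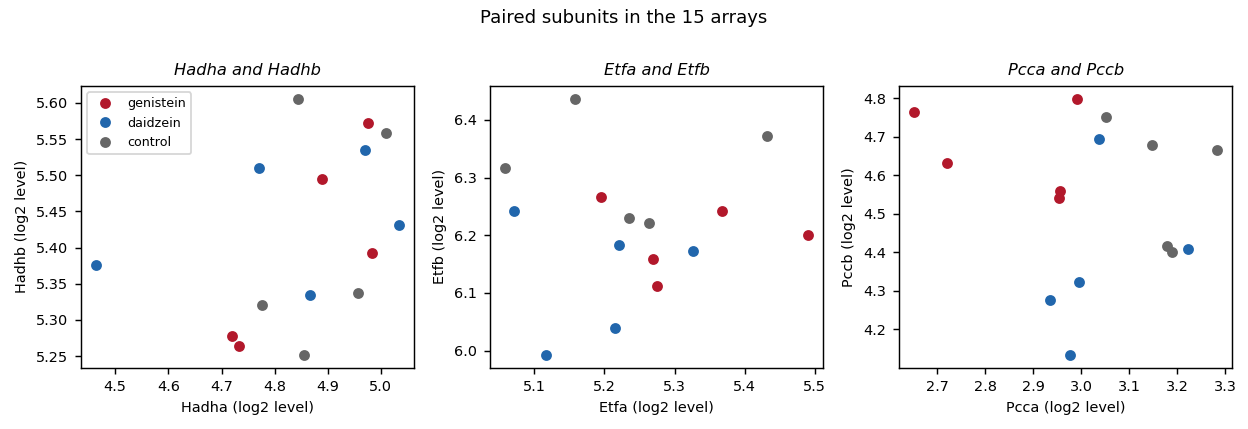
Log2 levels of both subunits of the trifunctional protein (Hadha and Hadhb), the electron transfer flavoprotein (Etfa and Etfb) and propionyl-CoA carboxylase (Pcca and Pccb) in the 15 arrays, coloured by diet. The points scatter widely in all 3 panels, and the array daidzein 1 has the lowest Hadha level, at 4.46.

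Of the 33 genes, 23 had 1 probe set and 10 had 2 or more. Both probe sets of Cpt1a, Eci1 and Acat1 gave changes above 0 in both comparisons with control, as did all 3 of Acot2. For Hadha the dimmer probe set that passed the filter gave -0.22 with genistein and 0.087 with daidzein, and for Hadh it gave -0.15 with genistein and 0.097 with daidzein. Acaa2 had probe sets that passed the filter and differed in direction with genistein, at 0.38 on the dimmer and -0.17 on the brighter one. So did Gcdh, from the brightest to the dimmest at 0.009, 0.0038 and -0.11 with genistein and 0.058, 0.13 and -0.023 with daidzein. Bdh1 differed in direction with daidzein, at 0.012 on the brighter and -0.037 on the dimmer one.

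**Figure D5:**
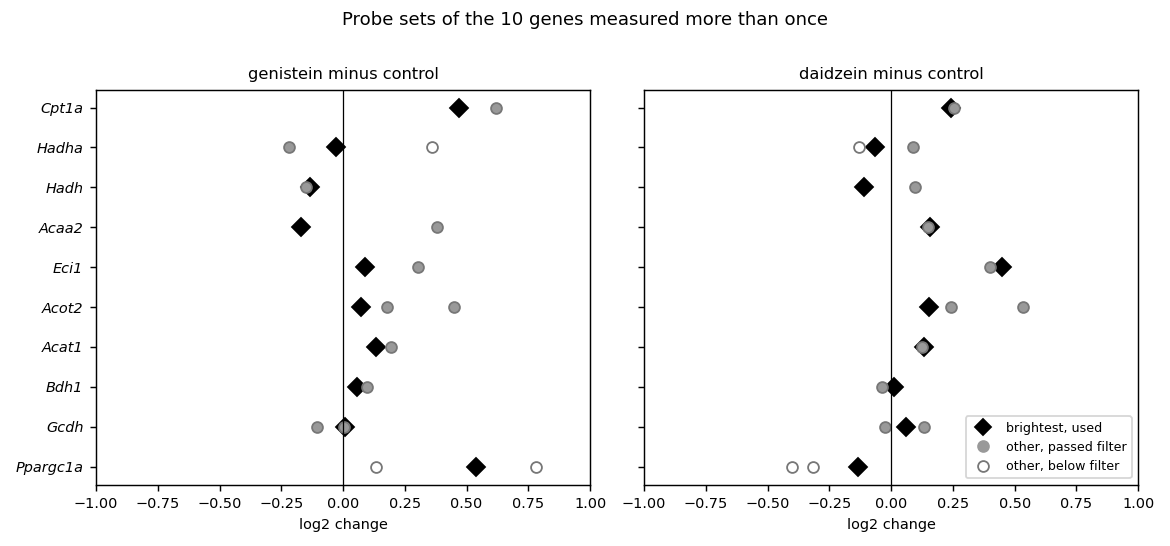
Log2 change against control for each probe set of the 10 genes with more than 1, for genistein (left) and daidzein (right): diamonds are the probe sets used, grey circles others that passed the filter and open circles those below it. In Acaa2 the 2 probe sets lie on opposite sides of 0 with genistein and together, at 0.16 and 0.15, with daidzein.

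Other genes of the pathway, 59 tested of 60 measured in 6 lists of transport, oxidation, ketone body, branched-chain, regulatory and peroxisomal genes, also gave no call by limma in any comparison (all tested, 0.322% with genistein, 0.0161% with daidzein and 0.113% between them). At an unadjusted p under 0.05, 7 were higher and 7 lower with genistein (all tested, 5.45% and 5.5%), 3 higher and 3 lower with daidzein (4.1% and 4.14%), and 2 higher and 4 lower with genistein relative to daidzein (4.64% and 4.73%). In that order, the medians were 0.040, 0.025 and 0.049. The gene nearest to the threshold was Acsl4, an acyl-CoA synthetase that prefers arachidonate, with a change of 0.81 ± 0.16 with genistein (limma adjusted p = 0.0501) at a mean level of 5.43 with genistein and 4.62 in controls. Acsl4 also had 0.41 ± 0.16 with daidzein (adjusted p = 0.541) and 0.40 ± 0.16 between genistein and daidzein (adjusted p = 0.433). Among the other 7 genes of activation and carnitine supply, Acsl5, a mitochondrial and microsomal acyl-CoA synthetase, differed by 0.49 ± 0.12 between genistein and daidzein (adjusted p = 0.124). Slc22a5, the carnitine transporter, had 0.56 ± 0.21 with genistein, and Tmlhe, of carnitine synthesis, -0.24 ± 0.079.

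Among the 10 other beta-oxidation and acyl-CoA genes tested, Acot13, a mitochondrial thioesterase, had -0.34 ± 0.075 with genistein (limma adjusted p = 0.0772). Acsm5, a medium-chain acyl-CoA synthetase, had 0.77 ± 0.26 with genistein. Its relative Acsm1 had -0.24 ± 0.070 with daidzein and -0.19 ± 0.070 with genistein. Nudt7, a CoA diphosphatase of peroxisomes, differed by -0.26 ± 0.062 between genistein and daidzein. Against control, Nudt7 had -0.23 ± 0.062 with genistein and 0.027 ± 0.062 with daidzein. Among the 4 other ketone body genes, with none under an unadjusted p of 0.05, Fgf21, a fasting hormone, had 0.48 ± 0.34, Bdh2 0.28 ± 0.25 and Oxct1, the enzyme of ketone body use, 0.13 ± 0.15 with genistein. In controls Bdh2 stood at -0.10 and Oxct1 at -0.27, near the filter level of -0.30. Slc16a1, a monocarboxylate and ketone body carrier, had -0.23 ± 0.14 with daidzein.

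Of the 12 other propionate and branched-chain genes, Mccc1, a subunit of the carboxylase of leucine breakdown, had -0.45 ± 0.14 with genistein (limma adjusted p = 0.218) and -0.45 ± 0.14 with daidzein (adjusted p = 0.391). Hibch, of valine breakdown, had 0.23 ± 0.11 with daidzein, and Mcee and Aldh6a1, of propionate and valine breakdown, had -0.13 ± 0.065 and 0.15 ± 0.076 with genistein. Of the 16 regulators, Ucp3, a mitochondrial uncoupling protein, had 0.50 ± 0.14 with daidzein (adjusted p = 0.346), and Rxra, the partner receptor of PPAR alpha, 0.29 ± 0.15. Ucp3 was dim, at a mean level of 0.65 with daidzein and 0.15 in controls. Hnf4a and Ppard, nuclear receptors, had -0.23 ± 0.12 and -0.45 ± 0.25 with genistein.

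Among the 9 peroxisomal genes, Decr2, the peroxisomal counterpart of Decr1, differed by -0.40 ± 0.085 between genistein and daidzein (limma adjusted p = 0.0879). Ehhadh, the bifunctional enzyme and a PPAR alpha target in rodents, had 0.39 ± 0.12 with genistein (adjusted p = 0.206) and 0.46 ± 0.12 with daidzein (adjusted p = 0.346). Scp2, a thiolase and sterol carrier, had -0.15 ± 0.068 with genistein and -0.27 ± 0.068 with daidzein, and Crot, the carnitine octanoyltransferase, 0.63 ± 0.29 with genistein.

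The promoter windows of the set were searched for letters of known elements, from 250 bases before to 50 after the start, in RefSeq windows of build GRCr8 that were matched for 29 of the 33 genes and searched on both strands. None of the 29 held a direct repeat of AGGTCA spaced by 1 base, the form bound by PPAR alpha with its partner, which 0.0538% of all 33469 windows held. None held TCAAGGTCA, the element of estrogen-related receptors (0.433% of all windows), or the palindromic estrogen response element, GGTCA and TGACC around any 3 bases (0.0269%). With shares this low, a match among 29 windows was unlikely in any case, so the absence of these 3 says nothing of the set. A single AGGTCA, which is contained in the first 2 of these, was found in 5 of the 29 windows (17.2%), those of Acad11, Acadvl, Echs1, Eci1 and Hadhb, and in 16.2% of all windows. The GC box GGGCGG, a motif added after the interval of Hadha and Hadhb was read, was found in 21 of the 29 windows (72.4%) and in 33.1% of all windows. Both Hadha and Hadhb are among the 21. Their interval, of 243 bases, is shorter than the 250 searched before each start, so its 1 box can count for both. All windows were not matched to the set, and a difference from them was not tested. Such counts describe the letters in these windows, and no match says nothing of elements that lie elsewhere.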

How the data were processed

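Liver RNA of 15 rats was measured on 1-channel Affymetrix arrays. The unit of the values the authors deposited is a score, inferred from the values to be a log signal standardized within each array, where the design had assumed log2; background correction, probe summary and genome build are not given in the sources used here. After exponentiation, all 359 gaps examined between frequent values came out as whole steps (tolerance 0.001). Scores were multiplied by a common 2.60 log2 units (arrays, 2.54 to 2.79) and quantile normalized, because array medians differed by over 0.1. Leaving out 57 control probe sets and those under the 40th percentile of mean level left 18625, with no missing values, fitted over 3 diets with limma 3.58.1 (R 4.3.3) and adjusted by Benjamini-Hochberg at 0.05. SE and intervals come from that fit, and SD is that of 5 arrays. Symbols came from the array annotation, and 20832 probe sets had 1 symbol. Title numbers did not pair the arrays (1 of 15 same-number pairs correlated above 0.1, r from -0.163 to 0.109), and descriptions number 9 arrays differently. The members and lists were chosen with earlier results of these data known. Named with every array are the 5 members of lowest p per comparison and 10 markers of the route, and from each list the 4 genes of lowest p. For many of these list genes only the comparison of lowest p is given. A change printed for 1 diet is thus not shown to be particular to it. The fit was tested on simulated data. Alternatives changed the scaling, filter, model, probe set rule and arrays.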

Additional observations from a re-analysis of the deposited data

Results flagged for a closer look

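Ppargc1a in the array daidzein 1 stood at -1.22, apart from the other 4 daidzein arrays, which lay between 0.093 and 0.35. The gap to the nearest of them was 0.834 of the range of the group, above Dixon's critical value for 5 samples. It was 1 of 99 groups of 5 arrays examined (33 genes in 3 diets), and chance flags about 1 in 20 groups.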

How the results depend on the processing

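Under all 28 alternatives, limma called 0 of the 33 genes in every comparison (31 remained with a filter at the 60th percentile, without Cpt1b and Ppargc1a). Some of these could hardly differ from the main fit. An own scale for each array keeps the ranks within it, and quantile normalization then depends on those ranks. The probe set of lowest spread was read from the main fit and gave the same genes at an unadjusted p under 0.05. The median change over the genes ranged from -0.019 to 0.050 with genistein, -0.048 to 0.0021 with daidzein and -0.031 to 0.070 between them. Leaving out single arrays gave -0.019 to 0.025, -0.048 to -0.016 and -0.0062 to 0.070, so medians this close to 0 have no settled sign. A replicate block on the title numbers, which do not pair the arrays, called 0 genes of the set. It called 17, 2 and 2 probe sets in all, against 60, 3 and 21 without the block. Each number occurs in all 3 diets, so the block cannot move the changes. The medians, 0.014, -0.039 and 0.025, were therefore the same by design. Over all probe sets the calls ranged from 0 (only the 2 diets compared) to 203 (without genistein 4) with genistein, 1 (both control 1 and daidzein 5 left out, chosen after seeing the data) to 8 (without daidzein 1) with daidzein, and 2 to 136 (without genistein 4) between them. Genes of the set at an unadjusted p under 0.05 numbered 2 to 7, 1 to 8 and 2 to 8; with arrays only centred on their medians they were Cpt1a and Cpt1b with genistein, Eci1 with daidzein, and Acaa2 and Ppargc1a between them. With genistein, Cpt1a ranged from 0.39 (without control 3) to 0.59 (without control 5). Of 922 values of single genes per comparison, 38, 47 and 35 changed sign, all of genes whose change was under 0.18 in size, and the cause was not tested. A change of filter, a block, an eBayes option or only the 2 diets compared cannot alter a difference of means. Nor can leaving out an array of the diet not compared, and an own scale for each array hardly can. Their values are among the 922, so these counts understate how often the sign moves where it can. Depth is not known for arrays. Cpt1b and Ppargc1a were near the filter level and Acadsb was low too, as were Bdh2, Oxct1 and Ucp3 of the lists. Their changes could depend on any background correction before deposit, which is not given.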
